A study of Mus musculus with 4 samples.

Results

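The genes described here drive the step from G1 into S phase and copy the DNA. They were chosen by name: 51 symbols were looked up in GEO's annotation of the array, each had at least 1 probe set that carried its symbol alone, and the brightest probe set of each gene was kept, which gave 51 of the 19938 genes measured. RNA came from E14 cells, a mouse embryonic stem cell line that expresses Pou5f1 and Nanog, infected with a lentivirus carrying an shRNA against luciferase (Luc, the control) or against Usp22, with 2 arrays for each. Usp22 is the ubiquitin protease of the SAGA coactivator complex. Both groups grew without feeder cells on gelatin in 20% FBS medium with LIF and 2i, that is 1 µM PD0325901 (which blocks MEK) and 3 µM CH99021 (which blocks GSK3). The number of shRNA sequences, the time after infection and any selection or cloning of infected cells were not given in the sources used here. Nothing there says that replicates were separate cultures, so the p-values reflect the spread between these samples alone, and that spread may be technical.

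In G1, the origin recognition complex (Orc1 to Orc6) marks replication origins, and Cdc6 and Cdt1 load onto it the Mcm2 to Mcm7 helicase, a step that geminin (Gmnn) blocks by binding Cdt1. In S phase, Cdc45 and the GINS complex join and activate the helicase, primase and the polymerases copy the strands, and the sliding clamp PCNA, loaded by replication factor C, holds the polymerases on DNA. Cyclin D with Cdk4 or Cdk6 and cyclin E with Cdk2 phosphorylate the retinoblastoma proteins, which releases the E2F factors that transcribe many of these genes. Mouse embryonic stem cells are known for a short G1 phase with high cyclin E activity and little restraint by the retinoblastoma proteins. Whether this description holds in the medium used here, in which MEK is blocked, was not tested.

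Signals are intensities on the log2 scale after quantile normalization, and changes are depleted minus control. Usp22 read 9.41 and 9.36 in the controls and 8.23 and 8.29 on the depleted arrays, a fall of 2.17-fold (log2 fold change −1.12, standard error 0.27, n = 2 each, limma adjusted p = 0.00826). All 10 stem cell markers looked up read above the receptor background of 6.99, the level under which 95% of 1194 olfactory and vomeronasal receptor genes lay. Of 30 markers of fibroblasts, endoderm, trophectoderm, mesoderm and neuroectoderm, 15 read above it. The mean signal of the 30 was 6.98 and 7.21 in the controls and 6.81 and 6.84 on the depleted arrays. Without overlap between the groups, 18 of them were lower and 2 higher, beside 33.3% and 27.4% of all genes. The part of these markers in the results below was not tested. Control replicate 2 stood apart: over all genes it correlated at 0.941 with control replicate 1, against 0.978 between the depleted arrays. By the same measure, the first control lay nearer to each depleted array (0.951 for replicate 1, 0.974 for replicate 2) than to its fellow control. The second control was further from those arrays, at 0.877 and 0.908 in the same order. In bulk RNA, fewer cells of a kind, such as cells in S phase, and less RNA per cell cannot be told apart.

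The replication and G1/S genes had values on both sides of 0. Of 51, 35 had a log2 fold change above 0 and 16 below it, and the range ran from −0.52 for Mcm5 to 0.92 for Cdk6. Only Cdk6 and Ccne2 passed the test in the higher direction, 2 of 51 beside 2.62% of all genes, and 0 fell, beside 0.105% (limma, adjusted p under 0.05 over all genes). At an unadjusted limma p under 0.05, 14 were higher and 0 lower, beside 15.4% and 6.63% of all genes. Both depleted arrays lay above both controls for 26 members and below both for 11. Over all genes these shares were 27.4% higher and 33.3% lower, and over genes above the receptor background, as 46 of the 51 were, 36.8% and 37.7%. With each array centred on its median, 40 members had values above 0 and 11 below, and 31 were higher and 5 lower without overlap, beside 29.8% and 31.2% of all genes. The median change of the members was 0.31, against −0.12 over all genes and −0.03 over genes above the background. Without control replicate 2 the members' median was 0.11, with 28 values above 0 and 23 below.

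**Figure D1:**
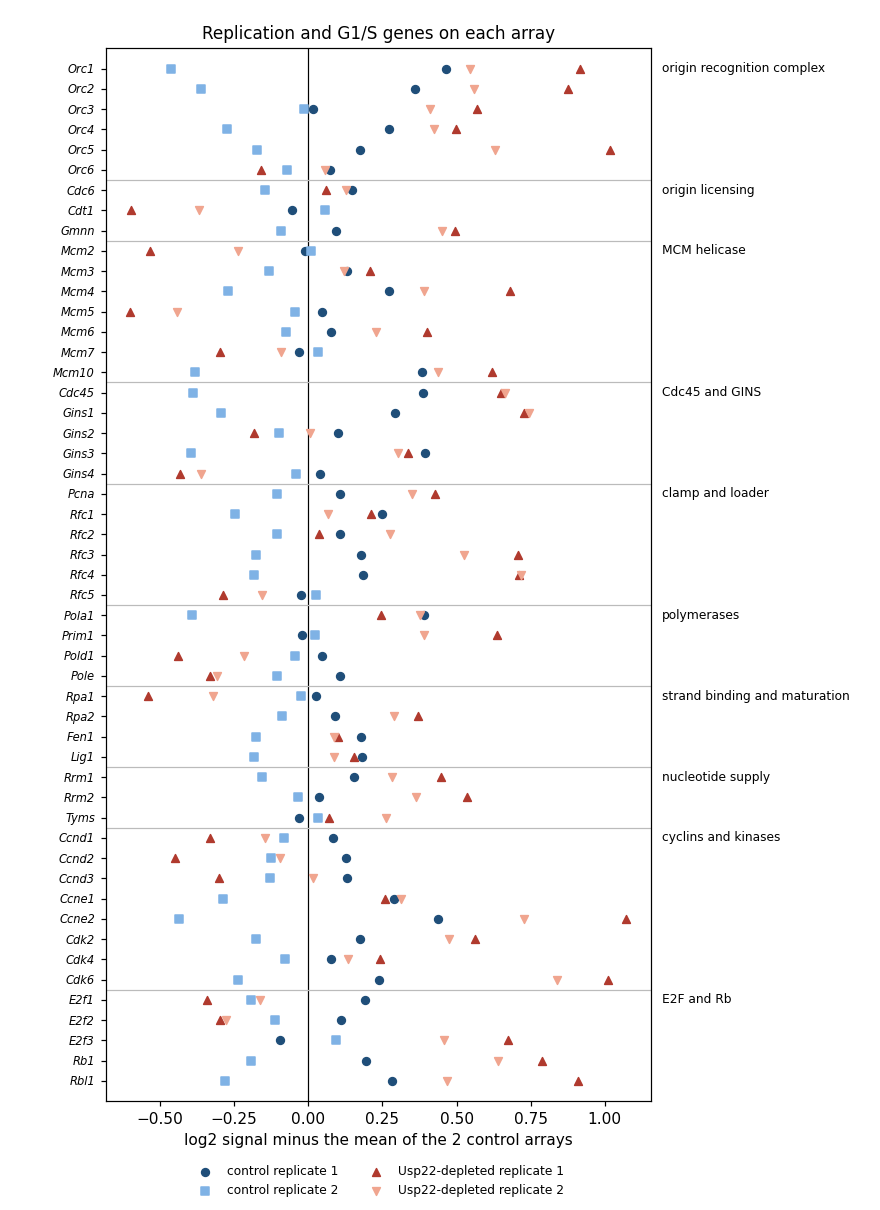
Log2 signal of each of the 51 genes on each of the 4 arrays, minus the mean of that gene's 2 control arrays, grouped by role. Blue points are control arrays and red points depleted arrays; control replicate 2 (squares) lies below control replicate 1 for 44 of 51 genes, and Mcm5, Cdt1, Mcm2 and Rpa1 have both depleted arrays below both controls.

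The control arrays differed from each other on these and other cell cycle genes. Control replicate 2 read lower than control replicate 1 for 44 of the 51 genes, with a median difference of −0.26, while the median difference was −0.02 over all genes and −0.12 over those above the receptor background. Replicate 2 was also lower for 34 of 35 genes of G2 and mitosis (median −0.24) and for 63 of 74 further replication and G1/S genes (median −0.30). The depleted arrays differed by a median of −0.03 (replicate 2 minus replicate 1). Of the lower members, Mcm2, Mcm5, Cdt1 and Rpa1 differed by at most 0.11 between the controls.

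Upstream sequence is shown for 4 genes that carry the contrasts below: the called kinase gene Cdk6, the origin gene Orc1, and Mcm6 and Mcm5, which stood on opposite sides although they encode subunits of 1 helicase. The sequences are RefSeq's (GRCm38.p6), the 250 bases before the annotated start of each gene, 5′ to 3′ on the gene's strand. They lie at chr5:3343643-3343892, plus strand (Cdk6), chr4:108579204-108579453, plus strand (Orc1), chr1:128359706-128359955, minus strand (Mcm6) and chr8:75109259-75109508, plus strand (Mcm5). Capitals mark the words TTTCCCGC, TTTCGCGC, TTTGCCGC and TTTGGCGC on either strand, forms of the sequence that E2F factors bind.
Cdk6: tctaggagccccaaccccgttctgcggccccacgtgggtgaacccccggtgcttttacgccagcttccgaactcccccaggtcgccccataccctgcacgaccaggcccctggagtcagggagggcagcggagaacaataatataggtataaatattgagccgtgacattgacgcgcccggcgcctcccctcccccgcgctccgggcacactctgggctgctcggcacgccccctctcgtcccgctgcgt
Orc1: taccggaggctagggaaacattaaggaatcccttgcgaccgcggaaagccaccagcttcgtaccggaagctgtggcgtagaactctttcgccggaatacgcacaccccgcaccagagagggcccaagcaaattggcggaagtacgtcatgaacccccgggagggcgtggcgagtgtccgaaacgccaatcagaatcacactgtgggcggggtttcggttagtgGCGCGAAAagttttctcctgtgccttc
Mcm6: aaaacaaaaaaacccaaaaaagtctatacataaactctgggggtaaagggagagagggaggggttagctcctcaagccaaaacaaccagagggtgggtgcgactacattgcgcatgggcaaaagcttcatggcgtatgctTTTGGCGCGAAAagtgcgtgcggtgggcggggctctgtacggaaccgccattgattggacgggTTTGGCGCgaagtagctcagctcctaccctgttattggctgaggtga
Mcm5: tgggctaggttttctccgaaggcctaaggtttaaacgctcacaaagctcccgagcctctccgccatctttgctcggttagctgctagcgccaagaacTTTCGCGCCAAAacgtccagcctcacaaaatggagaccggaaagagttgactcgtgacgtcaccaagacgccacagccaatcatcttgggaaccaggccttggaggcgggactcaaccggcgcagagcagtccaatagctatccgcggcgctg

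Orc1 held 1 such word, 27 bases before its start. Mcm6 held 3, of which those beginning 110 and 106 bases before the start overlap, and Mcm5 held 2 that overlap, 153 and 149 bases before the start. Cdk6 held 0. RefSeq windows of 250 bases before to 50 after the start were at hand for 40 of the 51 genes, and 17 of these (42.5%) had at least 1 word, against 704 of 27025 genes with a window (2.60%). CCAAT, the word bound by NF-Y, which lies inside none of the E2F words but can share an end base with one, was in 25 of the 40 (62.5%) and in 41.1% of all. Genes with several windows counted once if any window held the word. E2F words were in the windows of 7 of 21 members that stood higher without overlap, 5 of 8 that stood lower and 5 of 11 that overlapped, so they occurred on both sides. These are matches of letters, not measured binding.

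Among the cyclins and their kinases, the pair of called genes stood beside partners that did not pass the test. Cdk6, a kinase partner of the D cyclins, read 6.22 and 5.74 in the controls and 6.99 and 6.82 on the depleted arrays, so that the groups did not overlap. It rose from 5.98 ± 0.34 to 6.91 ± 0.12 (SD, n = 2 each; log2 fold change 0.92, 95% interval 0.40 to 1.45, limma adjusted p = 0.0341). Ccne2, which encodes cyclin E2, read 6.83 and 5.96 on the controls and 7.47 and 7.12 on the depleted arrays. Its lowest value was that of control replicate 2, and the groups did not overlap. It rose from 6.40 ± 0.62 to 7.30 ± 0.25 (SD, n = 2 each; log2 fold change 0.90, 95% interval 0.37 to 1.43, limma adjusted p = 0.0397). Both were dim: by the mean over the 4 arrays they lay under the receptor background, and so did both group means of Cdk6 and the control mean of Ccne2, so no fold is given.

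The changes of Cdk6 and Ccne2 depended on control replicate 2. Without that array, Ccne2 moved from 0.90 to 0.46 and Cdk6 from 0.92 to 0.69. Without control replicate 1 they stood at 1.34 for Ccne2 and 1.16 for Cdk6. Without depleted replicates 1 and 2 in turn, the changes were 0.73 and 1.07 for Ccne2 and 0.84 and 1.01 for Cdk6. A fit that leaves 1 array in a group takes its spread from the other group alone, so calls are not compared for these genes.

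Cyclin E1 (Ccne1), the paralog of Ccne2, read 8.89 and 8.32 on the controls and 8.87 and 8.92 on the depleted arrays, which overlap, with a log2 fold change of 0.29 (95% interval −0.24 to 0.81) and of 0.00 without control replicate 2. Cdk2, the kinase of cyclin E, stood higher without overlap, at 7.59 and 7.24 against 7.98 and 7.89 (log2 fold change 0.52, limma adjusted p = 0.231). Cdk4, the other partner of the D cyclins, also stood higher without overlap, by 0.19 (95% interval −0.34 to 0.71). The D cyclins themselves had values on the other side of 0: Ccnd1 stood at −0.24 without overlap, and Ccnd2 and Ccnd3 at −0.27 and −0.14 with overlap. Ccnd3 read 8.97 and 8.71 on the controls and 8.53 and 8.85 on the depleted arrays. With each array centred on its median, Ccnd1 stood at −0.02 and Ccnd3 at 0.07. None of these 6 passed the test.

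In the origin recognition complex, Orc1 to Orc5 each stood higher without overlap and Orc6 did not. Orc5 had the largest change, from 7.40 and 7.06 on the controls to 8.25 and 7.86 on the depleted arrays (1.77-fold, log2 fold change 0.82, 95% interval 0.30 to 1.35, limma adjusted p = 0.0628). Orc1, the subunit whose level is known to swing with the cell cycle, read 7.80 and 6.87 on the controls and 8.25 and 7.88 on the depleted arrays. The gap between its controls was wider than that between control replicate 1 and either depleted array, and its change of 0.73 (limma adjusted p = 0.101) moved to 0.27 without control replicate 2. Orc2 read 7.80 and 7.08 against 8.32 and 8.0 (log2 fold change 0.72, and 0.36 without control replicate 2, limma adjusted p = 0.107). Of the 5, Orc3 moved least without that array: it read 8.35 and 8.32 on the controls and 8.90 and 8.74 on the depleted arrays, a change of 0.49 that was 0.48 without control replicate 2 (limma adjusted p = 0.251). Orc4 stood at 0.46, and at 0.19 without control replicate 2. Orc6, a smaller subunit unrelated in sequence to the others, read 10.29 and 10.14 against 10.05 and 10.27, with overlap and a change of −0.05 (95% interval −0.58 to 0.47), or 0.17 with each array centred on its median.

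The licensing factors parted. Cdt1, which brings the helicase to origins, read 9.64 and 9.75 on the controls and 9.09 and 9.32 on the depleted arrays, lower on both (1.40-fold, log2 fold change −0.48, 95% interval −1.01 to 0.04, limma adjusted p = 0.255). Gmnn, its inhibitor, read 8.59 and 8.40 on the controls and 8.99 and 8.95 on the depleted arrays, higher on both (log2 fold change 0.47, 95% interval −0.05 to 1.00, limma adjusted p = 0.263). Neither passed the test, and whether their changes differ from each other was not tested. Cdc6, the loader that acts with Cdt1, overlapped between the groups, at 8.52 and 8.22 against 8.43 and 8.50 (0.09, and −0.05 without control replicate 2).

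Of the 6 subunit genes of the Mcm2 to Mcm7 helicase, which is assembled with 1 copy of each, 3 had values above 0 and 3 below. Mcm5 read 9.80 and 9.71 on the controls and 9.16 and 9.32 on the depleted arrays, the largest decrease of the 51 (1.44-fold, log2 fold change −0.52, 95% interval −1.05 to 0.0045, limma adjusted p = 0.229). Mcm2 read 10.39 and 10.41 against 9.87 and 10.16 (1.31-fold lower, log2 fold change −0.39, limma adjusted p = 0.338). Both kept the sign under each other scaling and with any 1 array left out. The remaining settings leave their changes as they are, so the sign could not turn there. With each array centred on its median they stood at −0.30 and −0.16. Mcm7 read 10.16 and 10.23 against 9.90 and 10.10, without overlap, but its change of −0.20 was 0.02 after that centring. On the other side, Mcm4 read 8.07 and 7.52 on the controls and 8.47 and 8.18 on the depleted arrays (log2 fold change 0.53, and 0.26 without control replicate 2, limma adjusted p = 0.220). Mcm6 read 9.12 and 8.97 against 9.44 and 9.27, without overlap (0.31), while Mcm3 overlapped (0.16). Mcm10, which is no part of the ring and helps to start the fork, stood at 0.53 without overlap and at 0.14 without control replicate 2.

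**Figure D2:**
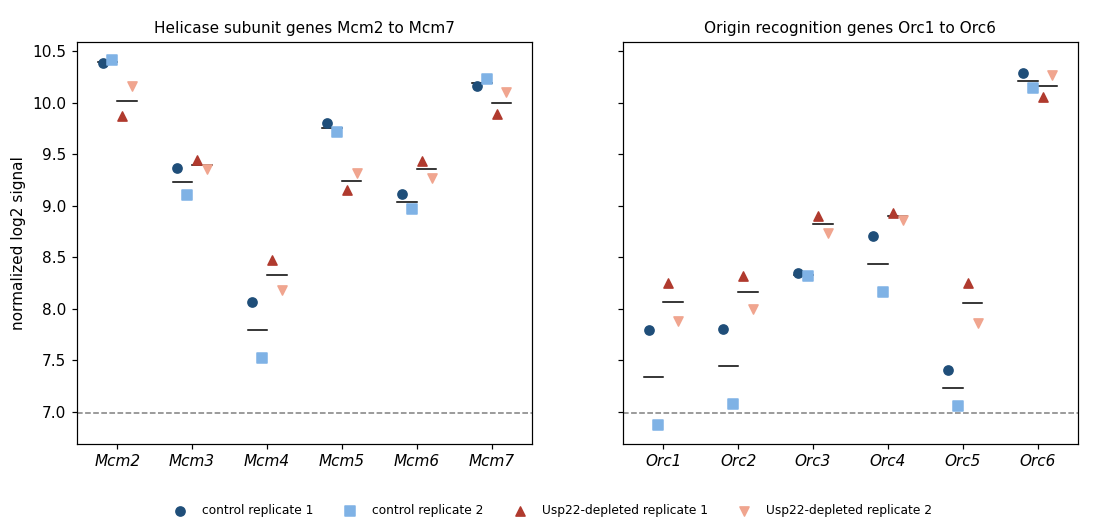
Normalized log2 signal of Mcm2 to Mcm7 (left) and Orc1 to Orc6 (right) on each array, with group means as black bars and the receptor background of 6.99 as a dashed line. Mcm2, Mcm5 and Mcm7 have both depleted arrays below both controls, Mcm4 and Mcm6 and Orc1 to Orc5 have them above; heights of different genes come from different probe sets and are not comparable.

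The activators of the helicase also lay on both sides of 0, and none passed the test. Gins1 read 8.22 and 7.63 on the controls and 8.65 and 8.66 on the depleted arrays (1.66-fold, log2 fold change 0.73, and 0.44 without control replicate 2, limma adjusted p = 0.0998). Cdc45 read 7.67 and 6.89 against 7.93 and 7.94, higher on both depleted arrays (0.66, and 0.27 without control replicate 2). Gins4, which encodes another subunit of the same GINS complex, was lower on both depleted arrays, at 9.56 and 9.48 against 9.08 and 9.16 (log2 fold change −0.40, 95% interval −0.92 to 0.13, limma adjusted p = 0.326). Gins2 read 10.07 and 9.87 on the controls and 9.79 and 9.98 on the depleted arrays, and Gins3 lay under the receptor background. Both overlapped, at −0.09 and 0.32, and changed sign under other settings.

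At the fork, the clamp and 2 of the clamp loader genes stood higher. Pcna read 9.81 and 9.60 on the controls and 10.13 and 10.06 on the depleted arrays (log2 fold change 0.39, 95% interval −0.14 to 0.91, limma adjusted p = 0.335). A second probe set for Pcna read almost the same on every array, at 9.81 and 9.60 against 10.14 and 10.05. Whether the 2 probe sets share probes was not tested, so the second is not counted as separate support. Rfc4 read 8.34 and 7.97 against 8.86 and 8.87 (1.64-fold, log2 fold change 0.71, limma adjusted p = 0.109) and Rfc3 8.03 and 7.68 against 8.56 and 8.38 (0.62, limma adjusted p = 0.164). Rfc1, the large subunit, and Rfc2 overlapped, at 0.14 and 0.16. Rfc5 read 10.46 and 10.51 against 10.20 and 10.33, lower without overlap at −0.22, but stood at 0.01 with each array centred on its median.

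Among the polymerase genes, the catalytic subunits of the replicative polymerases delta and epsilon, Pold1 and Pole, were lower without overlap. Pold1 read 8.31 and 8.22 on the controls and 7.82 and 8.05 on the depleted arrays (log2 fold change −0.33, 95% interval −0.85 to 0.20, limma adjusted p = 0.404), and Pole stood at −0.32. The primase gene Prim1 was higher on both depleted arrays, at 8.61 and 8.65 against 9.27 and 9.02 (log2 fold change 0.51, and 0.54 without control replicate 2, limma adjusted p = 0.234). Pola1, the catalytic subunit of the polymerase that extends its primers, overlapped (0.31, and −0.08 without control replicate 2). Of the genes of replication protein A, which coats single strands, Rpa1 was lower on both depleted arrays, at 9.14 and 9.08 against 8.57 and 8.79 (log2 fold change −0.43, limma adjusted p = 0.295), and Rpa2 higher on both (0.33, limma adjusted p = 0.402). Fen1 and Lig1, which trim and seal the lagging strand, overlapped at 0.09 and 0.12. All 3 genes of nucleotide supply stood higher without overlap, the ribonucleotide reductase genes Rrm2 (0.45) and Rrm1 (0.37) and the thymidylate synthase gene Tyms (0.17), with limma adjusted p from 0.282 to 0.667.

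The retinoblastoma genes and E2f3 stood higher, and E2f1 and E2f2 did not. Rb1 read 7.18 and 6.80 on the controls and 7.78 and 7.63 on the depleted arrays (1.64-fold, log2 fold change 0.71, limma adjusted p = 0.110). Rbl1, which encodes the relative p107, read 6.60 and 6.04 against 7.23 and 6.79 (0.69, limma adjusted p = 0.122). By its mean over the 4 arrays, 6.66, Rbl1 lay under the receptor background. E2f3 read 7.30 and 7.49 on the controls and 8.07 and 7.85 on the depleted arrays (log2 fold change 0.57, and 0.66 without control replicate 2, limma adjusted p = 0.198). Its second, dimmer probe set overlapped between the groups, with a change of 0.46. E2f1 overlapped as well (−0.25). E2f2, under the receptor background, was lower without overlap (−0.29, 95% interval −0.81 to 0.24).

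**Figure D3:**
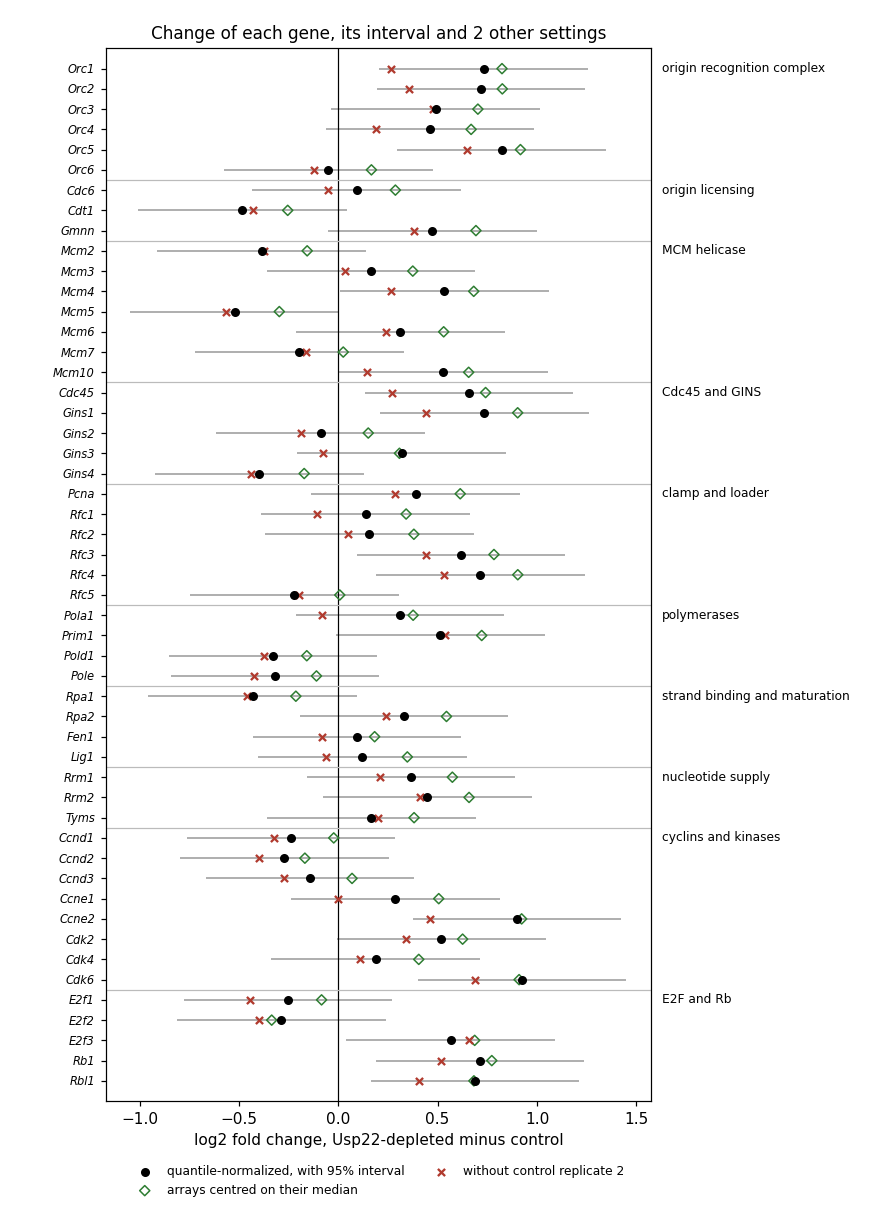
Log2 fold change (depleted minus control) of the 51 genes by role, with the 95% interval of the fit as a grey bar (black points), with each array centred on its median (green diamonds) and without control replicate 2 (red crosses). Centring moved most genes up, by amounts that turn Orc6, Mcm7, Gins2, Rfc5 and Ccnd3 positive, and leaving out control replicate 2 moved Ccne2 from 0.90 to 0.46.

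Which members were called changed with the variance model and the scaling. With a variance that follows intensity and limma's robust option, Cdk6 and Ccne2 were no longer called (adjusted p = 0.0685 and 0.0716), Gins1 and Rfc4 rose (0.0479 and 0.0357), and Mcm5, Cdt1 and Mcm2 fell (0.0295, 0.0478 and 0.0497). That fit called 1.91% of all genes higher and 1.70% lower. With each array centred on its median, 7 members rose (Cdk6, Ccne2, Orc5, Gins1, Rfc4, Orc1 and Orc2) and 0 fell, beside 4.65% and 0.100% of all genes. On the deposited log2 values, 0 members were called in either direction by limma, beside 0.376% and 0.0502% of all genes. At an unadjusted limma p under 0.05 on those values, 16 were higher and 0 lower, beside 11.9% and 14.2%. The median of all genes shifted with the scaling, from −0.12 to −0.09 with centring and −0.24 on the deposited values, and the members' median lay above it by 0.43, 0.50 and 0.50. Above the median of the genes over the receptor background it lay by 0.34, 0.27 and 0.27. Without control replicate 2 these gaps were 0.17 to all genes and 0.18 to the genes over the background.

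The members' changes ran lower with brighter signal. In ranges of the mean signal chosen after the values were seen, the members' median change was 0.69 under 7 (5 genes), 0.57 from 7 to 8 (11 genes), 0.29 from 8 to 9 (19 genes), 0.16 from 9 to 10 (11 genes) and −0.20 from 10 up (5 genes). All genes in the same ranges had medians of −0.15, −0.14, 0.10, 0.09 and −0.03. Across the 51 genes, signal and change had a Pearson correlation of −0.49 and a Spearman correlation of −0.53, which are descriptions over genes that share the same 4 arrays. Among the 41 members from 7 to 10 the Pearson correlation was −0.46, and without control replicate 2 it was −0.27 over the 51. Over all genes it was 0.03. Median centring gave −0.33 for the members and 0.23 for all genes, and the median of the members from 10 up was then 0.02. Whether the ranges differ was not tested.

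**Figure D4:**
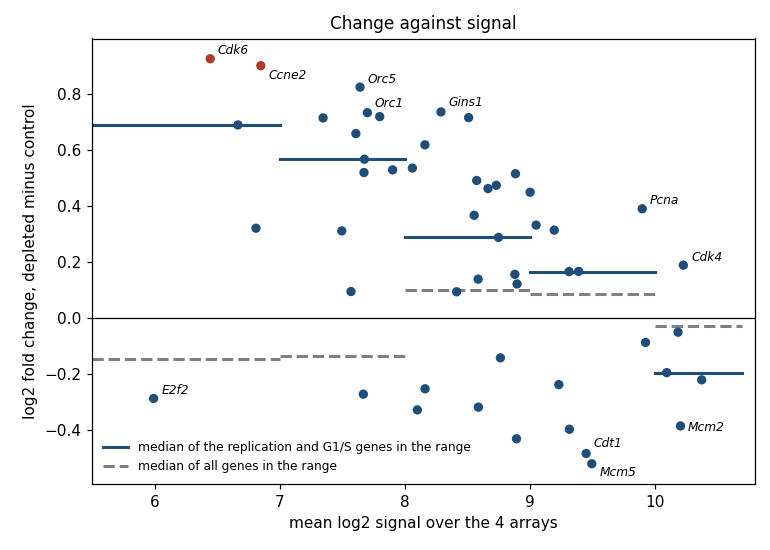
Log2 fold change against mean log2 signal over the 4 arrays for the 51 genes, the called genes Cdk6 and Ccne2 in red, with the median of these genes (solid) and of all genes (dashed) in 5 ranges of signal. The members' medians fall from 0.69 under a signal of 7 to −0.20 from 10 up, while those of all genes lie between −0.15 and 0.10.

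Other genes of the pathway, a list of 77 replication, S-phase and G1/S genes that holds none of the 51, was read in the 74 that were analysed here. Of these, 4 rose and 0 fell (limma), beside 2.62% and 0.105% of all genes. Without overlap 39 were higher and 18 lower, beside 27.4% and 33.3% of all genes. Over genes above the receptor background, as 63 of the 74 were, those shares were 36.8% and 37.7%. The median of the 74 was 0.28, or 0.14 without control replicate 2. On the deposited values 0 rose, with centring 8, and with the intensity trend and the robust option 3 rose and 1 fell. Leaving out 1 array at a time gave medians from 0.14 to 0.36, the last without control replicate 1. Those that rose here were Cdc25a, the phosphatase that activates Cdk2 (1.05, limma adjusted p = 0.0151), Dscc1, a subunit of an alternative clamp loader (0.94), the E2F family gene E2f5 (0.91) and the checkpoint clamp loader gene Rad17 (0.86). Cdc25a read 7.88 and 6.33 in the controls, the second value on replicate 2, and 8.27 and 8.04 on the depleted arrays, and its change was 0.27 without control replicate 2. Without that array Dscc1, E2f5 and Rad17 moved to 0.56, 0.67 and 0.46. With trend and robust on all 4 arrays, those 3 were not called (limma adjusted p = 0.0563, 0.0691 and 0.0852). The next by size were Prim2, the partner of Prim1 in primase (0.83), Mcm9 (0.75), the chromatin remodeller gene Hells (0.71) and Lin9 (0.71). Lin9 belongs to a complex that binds cell cycle promoters. Limma adjusted p for Prim2, Mcm9, Hells and Lin9 ran from 0.0589 to 0.111. By the mean over the 4 arrays, E2f5 (6.80), Rad17 (6.65), Mcm9 (6.58) and Lin9 (6.92) lay under the receptor background, so their changes are limited by signal. E2f4, named after its value was seen, was the lowest of the 74 at −0.56 (limma adjusted p = 0.205), and it was the gene that fell with trend and robust (0.0255).

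Genes of G2 and mitosis, compared here by count and median alone, had 30 of 35 values above 0 and a median of 0.37. Of these, 1 was called higher and 0 lower (limma), beside 2.62% and 0.105% of all genes. Without overlap 26 were higher and 2 lower, beside 27.4% and 33.3% of all genes. Over genes above the receptor background, as 34 of the 35 were, those shares were 36.8% and 37.7%. The median was 0.23 without control replicate 2, 0.45 without control replicate 1 and 0.57 after median centring. With all 4 arrays, the count called higher ran from 0 to 3 over the settings. The replication and G1/S genes had 11 of 51 lower without overlap. Whether the shares of the lists differ was not tested, since the genes share the same 4 arrays.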

How the data were processed

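The deposited table holds linear intensities of 28856 probe sets on 4 Affymetrix arrays. Per the labels' protocols, Trizol- and column-purified RNA was made into biotin-labelled cDNA; summarisation, background correction, normalization and build were not given in the sources used here. Log2 intensities were quantile-normalized across the arrays. GEO's annotation, which can be old, gave 1 symbol to 21789 probe sets, several to 1621 and none here to 5446. The brightest probe set per gene was kept. All 51 member symbols matched RefSeq (GRCm38.p6) by gene ID.

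All 19938 genes were fitted with limma 3.58.1 in R 4.3.3 (lmFit, eBayes, 2 groups, two-sided; calls at a Benjamini-Hochberg adjusted p under 0.05). With 2 residual degrees of freedom and an infinite prior, genes shared a standard error of 0.27, and the smallest called change was 0.86. An exact permutation test of 2 against 2 cannot go below 0.333. The number of arrays limits the precision.

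Members, lists and alternatives were chosen with earlier results of these data known. Named were all members, with array values for called members, the 6 largest changes in each direction and sign changes under scaling, and array values of others where roles are compared. Of the further genes, up to 8 were named, called ones first. A comparison of the cyclin E proteins was planned and not made, since no protein sequences were used here.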

Additional observations from a re-analysis of the deposited data

How the results depend on the processing

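The numbers of called genes depended on the setting (limma). All genes called higher, 523 here, were 927 with arrays centred on their median, 75 on the deposited log2 values, 326 with the intensity trend and 856 with the replicate block. All genes called lower, 21 here, were 10 on the deposited log2 values, 47 with log2(value + 16), 36 without the dimmest 0.25 of genes, 149 above the receptor background, 339 with trend and robust settings, 286 with the trend alone and 42 with the replicate block. Members called higher, 2 here, were 7 with centring, 0 on the deposited values and 1 with the trend alone. Above the receptor background, which leaves out Cdk6 and Ccne2, 6 of 46 members were called higher, beside 671 of 9736 genes. Members called lower, 0 here, were 3 with trend and robust settings and 2 with the trend alone. Members lower without overlap, 11 here, were 5 with centring. Leaving out 1 array at a time gave 0 to 4884 genes called higher and 0 to 4236 lower, 0 to 19 members called higher and 0 to 1 lower, 11 to 22 members lower without overlap, a median change of the members from 0.11 to 0.42, and a Usp22 change from −1.15 to −1.09, no longer called without depleted replicate 1 or 2 (adjusted p = 0.830 and 0.360). The cause of these shifts was not tested. Dim members, such as Cdk6, Ccne2, E2f2, Gins3 and Rbl1 under the receptor background, are limited by their signal.

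Signs reversed for 12 members, none of them called and none beyond 0.32 in size in the fit of all 4 arrays. Without control replicate 1, Gins3, Pola1 and Ccne1 stood at 0.71, 0.70 and 0.57. With centring, Orc6 stood at 0.17, Mcm7 at 0.025, Gins2 at 0.15, Rfc5 at 0.0073 and Ccnd3 at 0.069, and on the deposited values Orc6 at 0.025 and Gins2 at 0.0093. Leaving out 1 array at a time, Orc6 ran from −0.16 to 0.057, Gins2 from −0.19 to 0.012, Ccnd3 from −0.30 to 0.017, Cdc6 from −0.054 to 0.24, Gins3 from −0.076 to 0.71, Rfc1 from −0.11 to 0.39, Pola1 from −0.082 to 0.70, Fen1 from −0.082 to 0.27, Lig1 from −0.062 to 0.30 and Ccne1 from −0.0014 to 0.57. Whether same-numbered arrays of the groups were handled together was not given in the sources used here. Their deviations correlated at 0.10 over all genes, a value that cannot settle it. With the replicate block 3 members were called, Orc5 (adjusted p = 0.0374) beside Cdk6 and Ccne2.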
